A study of Homo sapiens with 24 samples.

Results

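The genes described here are 31 members of the NF-kB pathway: its subunits, its inhibitors and adaptors, and its target genes, chemokines among them. They were chosen by name from the 59385 gene symbols of a count table of RNA-seq in lung cancer cells, and all 31 were found. A549 and H1299 are established cell lines, both grown from human non-small cell lung tumours, and were stably transduced by lentivirus. The virus carried FLAG-tagged SIRT6 as wild type (WT), as a triple acetylation-deficient mutant (K3R) or as a triple acetylation-mimetic mutant (K3Q), or the FLAG-tagged empty vector (Ctr). The question put by the design is how each form of SIRT6 alters expression in each line. There were 2 lines, 4 constructs and 3 libraries in each of the 8 groups, 24 in all. Library 1-1 was biological replicate 1 in batch 1, library 1-2 was biological replicate 1 in batch 2, and library 2-2 was biological replicate 2 in batch 2. Nothing in the labels tells if 1-1 and 1-2 were grown separately, or whether each transduced line is 1 clone or a pool, so p-values measure the spread between these libraries, which may be partly technical. Library 2-2 is also shown apart below.

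NF-kB is a family of dimeric transcription factors held inactive in the cytoplasm by inhibitor proteins until receptors for tumour necrosis factor, interleukin-1 or bacterial products trigger a kinase that has the inhibitor destroyed. The freed dimers switch on chemokines, adhesion molecules and survival genes, and also the inhibitors that end the response. SIRT6 is an NAD-dependent deacylase of chromatin that is known to bind the RELA subunit and to dampen transcription of NF-kB targets by deacetylating histone H3 at their promoters. In lung epithelium the pathway is best known for the chemokines that call in neutrophils and monocytes.

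The promoters of 5 chemokine genes named below share a motif, and are printed for that reason, with those of ICAM1 and TNFAIP3, which also hold it. Each line gives the 200 bases before the transcription start that RefSeq annotates on GRCh38.p14, 5′ to 3′ on the strand of the gene, with matches to the NF-kB motif GGNNNTTCC on either strand in capitals. The windows lie at chr4:73740369-73740568 (CXCL8, plus strand), chr4:73869193-73869392 (CXCL1, plus), chr4:74099196-74099395 (CXCL2, minus), chr4:74038690-74038889 (CXCL3, minus), chr4:73998678-73998877 (CXCL5, minus), chr19:10270920-10271119 (ICAM1, plus) and chr6:137867059-137867258 (TNFAIP3, plus).
CXCL8: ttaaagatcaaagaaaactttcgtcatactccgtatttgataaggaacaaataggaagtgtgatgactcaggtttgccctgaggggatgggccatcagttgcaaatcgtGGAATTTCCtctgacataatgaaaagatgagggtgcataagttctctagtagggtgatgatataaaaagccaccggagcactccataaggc
CXCL1: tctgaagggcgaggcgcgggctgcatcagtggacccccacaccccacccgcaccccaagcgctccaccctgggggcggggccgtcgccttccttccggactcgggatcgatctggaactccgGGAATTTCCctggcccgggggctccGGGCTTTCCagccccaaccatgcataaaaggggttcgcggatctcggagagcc
CXCL2: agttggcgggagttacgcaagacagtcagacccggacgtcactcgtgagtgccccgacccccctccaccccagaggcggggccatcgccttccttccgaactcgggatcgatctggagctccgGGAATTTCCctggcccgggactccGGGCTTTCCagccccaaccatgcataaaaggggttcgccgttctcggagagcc
CXCL3: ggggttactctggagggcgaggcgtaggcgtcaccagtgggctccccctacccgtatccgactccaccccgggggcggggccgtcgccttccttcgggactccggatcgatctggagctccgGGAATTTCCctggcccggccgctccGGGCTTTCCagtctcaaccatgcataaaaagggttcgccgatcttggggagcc
CXCL5: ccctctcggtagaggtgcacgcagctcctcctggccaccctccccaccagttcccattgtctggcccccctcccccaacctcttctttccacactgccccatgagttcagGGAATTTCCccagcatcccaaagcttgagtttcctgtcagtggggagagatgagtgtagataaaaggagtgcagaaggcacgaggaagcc
ICAM1: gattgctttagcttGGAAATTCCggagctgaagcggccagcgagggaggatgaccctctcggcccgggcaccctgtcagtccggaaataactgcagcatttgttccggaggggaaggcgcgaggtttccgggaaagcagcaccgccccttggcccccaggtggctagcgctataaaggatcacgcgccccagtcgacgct
TNFAIP3: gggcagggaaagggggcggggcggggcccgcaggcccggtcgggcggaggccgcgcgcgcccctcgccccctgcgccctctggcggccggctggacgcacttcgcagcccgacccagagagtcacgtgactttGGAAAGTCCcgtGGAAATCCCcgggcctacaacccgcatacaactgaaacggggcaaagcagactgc
All 5 chemokine promoters hold GGAATTTCC, which starts between 77 and 91 bases before the start of transcription, and CXCL1, CXCL2 and CXCL3 hold a second match, GGGCTTTCC, at 53 bases before it. ICAM1 holds GGAAATTCC at 186 bases before its start, and TNFAIP3 holds GGAAAGTCC and GGAAATCCC at 67 and 55. Over the 250 bases before the start, 18 of the 27 members with an entry held a match (66.7%), against 5512 of all 27305 genes with an entry (20.2%). BIRC2, IL1A, IL1B, IRAK2, PTGS2, RELA, SOD2, TNF and TRAF1 held none in that window, and CCL2, IER3, NFKBIE and RELB had no entry. A match is a string of letters and not a measured binding site.

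SIRT6 itself was read in every library first. In A549 it stood at 1439, 2635 and 2982 CPM (counts scaled to library size) in WT libraries 1-1, 1-2 and 2-2, 1445, 2368 and 3424 in K3R and 1561, 1788 and 1669.6 in K3Q, against 25.7, 23.5 and 33.1 in Ctr. In H1299 it stood at 2601, 2346 and 6278 in WT, 4018, 2633 and 5658 in K3R and 14507, 10580.0 and 13657 in K3Q, against 43.0, 32.8 and 36.1 in Ctr. In H1299 the SIRT6 RNA of each K3Q library exceeded that of every WT and K3R library. A549 K3Q libraries 1-2 and 2-2 were nearly identical, with a chi-square of their counts of 2.49 per degree of freedom, where every other pair within a group lay between 14.4 and 63.6, so they may not be independent. The epithelial keratins KRT8 and KRT18 were at or above 239.9 CPM in every library, but KRT19, EPCAM and CDH1 stayed at or below 0.598 CPM in H1299, and the lung markers NKX2-1 and SFTPC stayed at or below 0.66 CPM in both lines. The summed level of 8 leukocyte markers was 2.11 to 8.36 CPM in A549 and 0.321 to 1.54 CPM in H1299, with PTPRC, the common leukocyte antigen, at 0 in 11 and 8 of 12 libraries. A549 libraries held 16434492 to 19412274 counts and H1299 libraries 14943189 to 22856407, at which 3 counts in a library equal 0.128 to 0.204 CPM.

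With empty vector, A549 was higher than H1299 in several chemokines and lower in RELB, ICAM1 and CXCL2. A gene passed where the edgeR quasi-likelihood test gave a Benjamini-Hochberg adjusted p under 0.05 over all genes tested, and 27 members were tested over both lines. A549 was higher in 8 of the 27 and lower in 13, where 59.2% of all 18102 genes passed. The fit held batch as a term within each line, so its log2 values refer to batch 1. In batch 2 alone A549 was higher in 9 and lower in 7, where 9459 of 18179 genes passed. The neutrophil chemokine CXCL5 held 223, 89.8 and 140.5 CPM in A549 Ctr libraries 1-1, 1-2 and 2-2, against 0.0855, 0 and 0 CPM in H1299 Ctr. By summed counts that is a ratio of 4597 on 7640 counts in A549 Ctr and 2 in H1299 Ctr (exact 95% interval, for counting error only, 1272 to 37966). CXCL8, which codes for interleukin-8, held 2.98, 1.54 and 7.67 CPM in A549 Ctr, against 0.0427, 0.0563 and 0 CPM in H1299 Ctr, or a ratio of 123 on 204 counts in A549 Ctr and 2 in H1299 Ctr (exact 95% interval, for counting error only, 33.5 to 1020.4). CXCL1, a further ligand of the same receptor family, held 8.93, 3.40 and 7.97 CPM in A549, against 2.26, 0.957 and 0.802 CPM in H1299 (log2 2.46). The 3 libraries of A549 all lay above those of H1299 for each of these chemokines, but CXCL5 and CXCL8 no longer passed without H1299 Ctr 1-1 (log2 12.09 and 5.33).

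The neighbouring gene CXCL2 ran the other way, at 6.30, 3.85 and 14.1 CPM in A549 Ctr, against 208, 146 and 225 CPM in H1299 Ctr (log2 -5.05). CXCL1, CXCL2 and CXCL3 are close copies of each other in a cluster on chromosome 4, so reads could be shared among them and their values are uncertain to that extent, although the opposite directions of CXCL1 and CXCL2 are both past the test. CXCL3 did not pass (log2 0.89), but did in batch 2 alone (log2 1.66). The monocyte chemokine CCL2 held 4.06, 6.15 and 4.67 CPM in A549, against 0.470, 0 and 0.214 CPM in H1299 (log2 3.98). PTGS2, the inducible cyclooxygenase, held 46.9, 20.5 and 45.4 CPM in A549, against 0.940, 0.619 and 1.18 CPM in H1299 (log2 5.54), and TNFAIP2, a TNF-induced protein of membrane protrusions, held 575, 670.4 and 523 CPM in A549, against 1.28, 1.58 and 0.748 CPM in H1299 (log2 8.74). The early response gene IER3 (log2 1.27) and NFKBIA, which codes for the main cytoplasmic inhibitor (log2 0.79), were also higher in A549.

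Of the 5 subunit genes 4 were lower in A549, and 2 of these, RELB and NFKB1, were also lower in batch 2 alone. RELB, the partner of p52 in the noncanonical arm, held 23.5, 52.3 and 80.8 CPM in A549 Ctr, against 189, 204 and 266 CPM in H1299 Ctr (log2 -2.84, and -1.78 in batch 2 alone). NFKB1, the precursor of p50, held 37.7, 62.4 and 57.1 CPM in A549, against 84.4, 93.9 and 88.7 CPM in H1299 (log2 -1.10, and -0.57 in batch 2 alone). The lines did not overlap in either gene. NFKB2, the precursor of p52, held 57.6, 99.7 and 233 CPM in A549, against 185, 183 and 249.97 CPM in H1299 (log2 -1.65). RELA, the main activating subunit, held 96.3, 108 and 146 CPM in A549, against 125, 124 and 141 CPM in H1299 (log2 -0.44). The ranges of NFKB2 and RELA overlapped through A549 2-2, and in batch 2 alone neither passed (log2 -0.34 for NFKB2 and -0.02 for RELA). REL did not pass in either fit (log2 0.40 with batch as a term). The adhesion molecule ICAM1 held 0.401, 0.962 and 2.70 CPM in A549, against 30.3, 15.5 and 23.7 CPM in H1299 (log2 -4.76). TRAF1, an adaptor of TNF receptors, held 5.55, 7.82 and 32.4 CPM in A549, against 75.0, 54.2 and 80.4 CPM in H1299 (log2 -3.32, and -1.70 in batch 2 alone). Neither gene's ranges overlapped between the lines. The inhibitor NFKBIE held 12.3, 17.2 and 30.7 CPM in A549, against 64.4, 73.5 and 83.8 CPM in H1299 (log2 -2.27), and the ubiquitin ligase BIRC3 held 26.8, 33.5 and 77.0 CPM in A549, against 157, 159.6 and 147 CPM in H1299 (log2 -2.04). TNFAIP3, the deubiquitinase A20 that ends signalling, the ubiquitin ligase BIRC2, IRAK2, a kinase-like adaptor of interleukin-1 receptors, and the mitochondrial superoxide dismutase SOD2 were lower by log2 -1.67, -0.76, -1.07 and -0.60. None of these 4 passed in batch 2 alone, where the values were log2 -0.41, -0.50, 0.11 and -0.42. IRAK2 held 14.3, 21.3 and 66.7 CPM in A549, against 33.7, 35.2 and 48.6 CPM in H1299, with A549 2-2 the highest and A549 1-1 the lowest. NFKBIZ, TNIP1, IL1A and LTB did not pass. Adjusted p for the 21 genes that passed ran from 8.79e-14 to 0.0376 by edgeR.

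**Figure D1:**
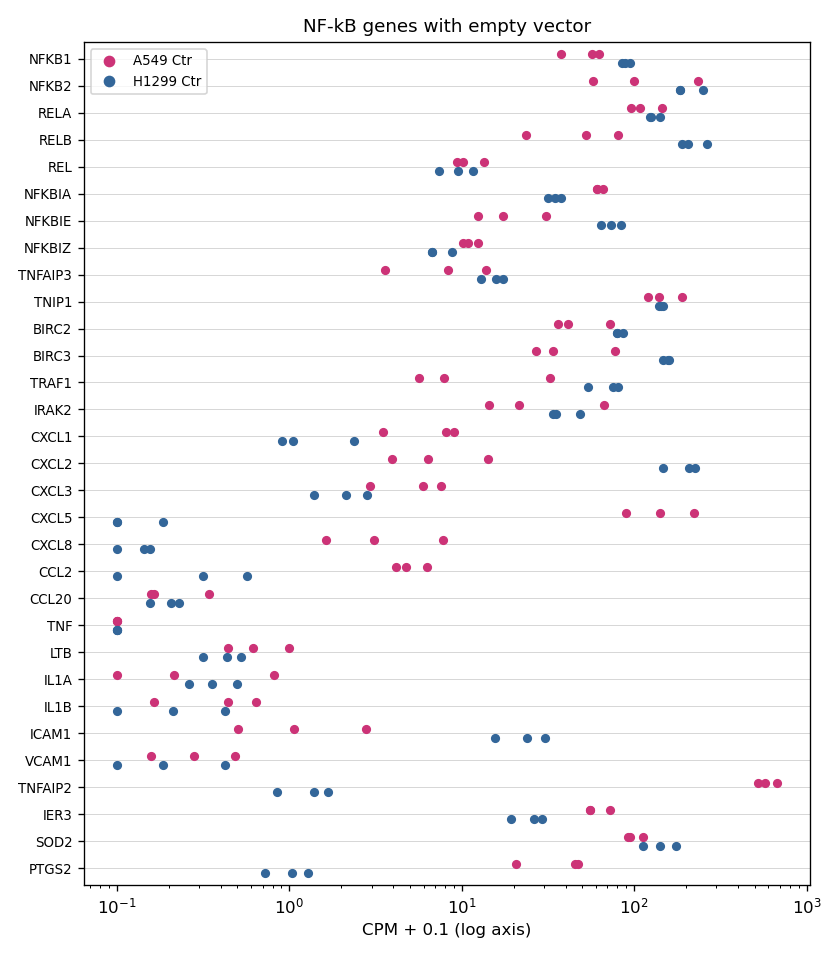
Level of each of the 31 genes in the 3 empty vector libraries of A549 and of H1299, as CPM plus 0.1 on a log axis; each point is 1 library. A549 points lie far to the right for CXCL5, TNFAIP2, CXCL8, PTGS2 and CCL2, and to the left for CXCL2, ICAM1, TRAF1 and RELB.

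Scaled by exon length, TNFAIP2 led the members in A549, with a median over the 12 libraries of 117 CPM per kb, ahead of IER3 at 52.3, CXCL5 at 49.0 and NFKB2 at 39.0. In H1299 CXCL2 led, with 98.7 CPM per kb, ahead of RELB at 67.3, NFKB2 at 44.8 and NFKBIE at 27.6. SOD2 has 2 gene records in the annotation and was given no length. Over all constructs, RELA spanned 96.1 to 169.7 CPM in A549 and 112 to 153 CPM in H1299, NFKB1 32.9 to 67.9 CPM in A549 and 70.2 to 96.7 CPM in H1299, and REL 9.23 to 17.3 CPM in A549 and 6.40 to 11.5 CPM in H1299. The subunit genes were thus read in every library. The adaptor TNIP1 spanned 120.2 to 223 CPM in A549 and 119.7 to 179 CPM in H1299, NFKBIZ 5.20 to 12.7 CPM in A549 and 4.85 to 8.72 CPM in H1299, and IER3 55.2 to 92.1 CPM in A549 and 19.2 to 38.3 CPM in H1299. The chemokine CXCL3 spanned 1.45 to 8.72 CPM in A549 and 0.934 to 4.95 CPM in H1299, and LTB, which codes for lymphotoxin beta, 0.311 to 1.72 CPM in A549 and 0.0480 to 0.577 CPM in H1299. The chemokine CCL20, the cytokines TNF and IL1B and the adhesion molecule VCAM1 had few reads: CCL20 spanned 0 to 0.447 CPM in A549 and 0 to 0.173 CPM in H1299, TNF 0 to 0.319 CPM in A549 and 0 to 0.0430 CPM in H1299, IL1B 0 to 0.819 CPM in A549 and 0 to 0.360 CPM in H1299, and VCAM1 0 to 0.385 CPM in A549 and 0 to 0.473 CPM in H1299. These 4 genes passed the low-count filter in neither line and reached at most 14 counts in any library. TNF was at 0 in 7 of 12 A549 and 11 of 12 H1299 libraries, so a level below that of 3 counts was not detectable. CXCL5, CXCL8, IL1A and LTB passed the filter in A549 and not in H1299, so 27 members were tested within A549 and 23 within H1299.

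In H1299, wild-type SIRT6 went with lower CXCL2, TRAF1 and IRAK2, and no member was higher past the test. The 3 are 3 of 23 members tested, where 4.05% of all 16262 genes passed. CXCL2 (GRCh38 chromosome 4, 74097035 to 74099293, minus strand) stood at 125, 80.3 and 92.0 CPM in WT libraries 1-1, 1-2 and 2-2, against 208, 146 and 225 CPM in Ctr. All WT libraries lay below all Ctr libraries, and the difference was log2 -0.99 ± 0.18 SE, adjusted p = 0.00963 by edgeR. TRAF1 (chromosome 9, 120902393 to 120929173, minus strand) stood at 24.6, 47.9 and 41.2 CPM in WT, against 75.0, 54.2 and 80.4 CPM in Ctr. The ranges did not overlap, with WT 1-1 the lowest library, and the difference was log2 -0.91 ± 0.20 SE, adjusted p = 0.0225 by edgeR. IRAK2 (chromosome 3, 10164865 to 10243743, plus strand) stood at 18.6, 26.4 and 25.9 CPM in WT, against 33.7, 35.2 and 48.6 CPM in Ctr. WT was again below Ctr throughout, by log2 -0.73 ± 0.15 SE, adjusted p = 0.0192 by edgeR. CXCL2 passed without any 1 of the 6 libraries compared, whereas TRAF1 and IRAK2 no longer passed without Ctr 1-1, Ctr 2-2, WT 1-1 or WT 2-2. In batch 2 alone none of the 3 passed, at log2 -1.11 for CXCL2, -0.60 for TRAF1 and -0.68 for IRAK2, and SIRT6 RNA was the highest of the WT libraries in WT 2-2.

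Most other members of H1299 leaned the same way with WT without passing. Of the 23 tested, 17 were negative, with a median log2 of -0.17 (-0.09 without WT 1-1) against -0.01 over all genes. Among them PTGS2 was at -0.97, BIRC3 at -0.59 and CXCL1 at -0.52 on the log2 scale. CXCL1 stood at 0.516, 1.11 and 1.15 CPM in WT, against 2.26, 0.957 and 0.802 CPM in Ctr, so WT was lower only in library 1-1. PTGS2 had 17, 9 and 3 counts in the WT libraries, against 22, 11 and 22 in Ctr. BIRC3 stood at 58.7, 132 and 136 CPM in WT, against 157, 159.6 and 147 CPM in Ctr. The ranges were apart, but WT 1-1 lay far below the other WT libraries. TNFAIP2 was the highest, at log2 1.16, on 2.45, 1.91 and 3.63 CPM in WT, against 1.28, 1.58 and 0.748 CPM in Ctr. ICAM1 was at 0.20 and NFKBIA at 0.01. CXCL8, which was not tested in H1299, had 12 counts over the 3 WT libraries, against 2 over the 3 Ctr libraries, a ratio of CPM of 5.96 (exact 95% interval, for counting error only, 1.33 to 54.8).

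K3R in H1299 gave the same signs as WT in the 3 genes that passed for WT, but no member passed, where 3.25% of all genes did. Unadjusted p by edgeR was under 0.05 in 5 of 23 members and in 2867 of 16262 genes. TRAF1 stood at 43.3, 39.1 and 42.5 CPM in K3R, against 75.0, 54.2 and 80.4 CPM in Ctr, below Ctr throughout (log2 -0.76 ± 0.19 SE, adjusted p = 0.0517 by edgeR). CXCL2 stood at 163, 94.4 and 141 CPM in K3R, with ranges that overlapped those of Ctr (log2 -0.57 ± 0.18 SE, adjusted p = 0.112 by edgeR), and BIRC3 at 86.2, 128 and 107 CPM (log2 -0.58 ± 0.20 SE, adjusted p = 0.144 by edgeR). With the library number as a block, which the libraries of H1299 follow, CXCL2 and TRAF1 passed, where 8.56% of genes passed. DESeq2 also called these 2 members, with 921 of 16262 genes. WT and K3R share the Ctr libraries, so their likeness is no second observation. Set against WT directly, K3R differed in 0 members and in 0% of all genes by edgeR, and DESeq2 called no member. Unadjusted p by edgeR was under 0.05 in 486 of 16262 genes and in 2 members. The lowest p were those of IRAK2 (log2 0.39), CXCL2 (0.42) and NFKBIZ, a nuclear member of the inhibitor family (-0.34), and none of the 3 passed.

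In H1299 CXCL2 was higher with K3Q than with WT. It stood at 253, 149 and 165 CPM in K3Q, against 125, 80.3 and 92.0 CPM in WT. K3Q lay above WT throughout, by log2 0.91 ± 0.18 SE, adjusted p = 0.018 by edgeR. It was the 1 member of 23 that passed in K3Q against WT, where 3.46% of all genes passed, and it did not pass without K3Q 1-1, WT 1-1 or WT 1-2, or in batch 2 alone (log2 0.86). Against Ctr, CXCL2 in K3Q was at log2 -0.07 ± 0.18 SE, with ranges that overlapped. No member passed in K3Q against Ctr, where 0.0615% of genes did. Unadjusted p by edgeR was under 0.05 in 1580 of 16262 genes and in 4 members. BIRC3 (log2 -0.59), TRAF1 (-0.51) and BIRC2 (-0.37) had the lowest p and negative values. BIRC2 stood at 47.2, 65.2 and 82.1 CPM in K3Q, against 79.9, 85.9 and 79.4 CPM in Ctr, with ranges that overlapped. TRAF1 stood at 46.1, 48.4 and 53.8 CPM in K3Q, all under the Ctr libraries. DESeq2 called 0 members in K3Q against Ctr, with 126 of 16262 genes. In K3Q against WT it called 2 members, CXCL2 and RELB, with 1123 of 16262 genes.

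With the library number as a block, 4 members were higher in K3Q than in WT in H1299, where 12% of all genes passed. They were CXCL2, IRAK2, and the subunit genes NFKB2 and RELB of the noncanonical arm. IRAK2 stood at 27.6, 32.0 and 38.3 CPM in K3Q, against 18.6, 26.4 and 25.9 CPM in WT. NFKB2 stood at 232, 232 and 253 CPM in K3Q, against 153, 176 and 221 CPM in WT. For both genes K3Q was above WT in every library. RELB stood at 204, 251 and 248 CPM in K3Q, against 107, 190.3 and 216 CPM in WT, with overlap between K3Q 1-1 and WT 2-2. Without the block the differences were 0.47, 0.38 and 0.49 on the log2 scale and did not pass. SIRT6 RNA was also higher in K3Q than in WT in these cells (log2 1.78 ± 0.35 SE, adjusted p = 0.0183 by edgeR), and its part in these differences was not tested.

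Against K3R, K3Q differed in 0 members, where 0.449% of all genes passed, and DESeq2 called no member. Unadjusted p by edgeR was under 0.05 in 4 members and in 1938 of 16262 genes. With the block CXCL2 passed (log2 0.52), where 3.23% of genes did. CCL2 had the lowest p but few reads, with 3 counts over the 3 K3Q libraries, against 41 over the 3 K3R libraries, a ratio of CPM of 0.0806 (exact 95% interval, for counting error only, 0.0160 to 0.253). IER3 (log2 -0.54) and BIRC2 (-0.39) had the next lowest p and did not pass.

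With construct and batch as terms, edgeR passed no member in any comparison of constructs over the 12 libraries of A549. Counts with library number as a block are given below. In WT against Ctr 0.105% of the 16120 genes tested passed, and 23 of the 27 members were positive, with a median log2 of 0.30, where the median over all genes was near 0. That median was 0.09 without WT 2-2, with 17 of 27 positive, 0.13 without Ctr 1-2, 0.20 without WT 1-1 and 0.46 without Ctr 2-2. Unadjusted p by edgeR was under 0.05 in 6 members and in 1279 of 16120 genes. NFKBIA (chromosome 14, 35401511 to 35404749, minus strand) stood at 74.7, 83.4 and 87.8 CPM in WT, against 60.5, 65.5 and 60.5 CPM in Ctr. The ranges were apart and each matched WT library was higher, but the difference did not pass by edgeR (log2 0.40 ± 0.08 SE, adjusted p = 0.0981 by edgeR). DESeq2 called this 1 member, with 178 of 16120 genes. ICAM1 stood at 2.28, 2.54 and 4.27 CPM in WT, against 0.401, 0.962 and 2.70 CPM in Ctr, with Ctr 2-2 inside the WT range (log2 1.26 ± 0.45 SE, adjusted p = 0.49 by edgeR). TNFAIP3 stood at 7.87, 13.5 and 18.1 CPM in WT, against 3.49, 8.21 and 13.7 CPM in Ctr, higher in each matched library with ranges that overlapped (log2 0.73 ± 0.30 SE, adjusted p = 0.567 by edgeR).

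K3R in A549 gave no call among the members against Ctr or WT. Against Ctr 0.118% of genes and 0 members passed. Unadjusted p by edgeR was under 0.05 in 1115 of 16120 genes and in 3 members, NFKBIA (log2 0.29), ICAM1 (1.24) and IER3 (0.33). Against WT 0% of genes and 0 members passed. Unadjusted p by edgeR was under 0.05 in 116 of 16120 genes and in 0 members. The 3 with the lowest p were NFKBIE (log2 -0.31), NFKBIA (-0.11) and NFKBIZ (-0.31). A difference that misses the test does not show that the constructs act alike: the SE of these 3 was 0.08 to 0.25, and that of CXCL8 was 0.82. DESeq2 called 0 members in either comparison.

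K3Q in A549 gave negative values against WT and K3R in nearly all members, and none passed. K3Q libraries 1-2 and 2-2 were nearly identical over all genes (chi-square 2.49 per degree of freedom), so the 3 K3Q libraries may not be independent. Against Ctr 0.0248% of genes passed, against WT 0.0062% and against K3R 0.0062%, with 0 members in each by edgeR and by DESeq2. Unadjusted p by edgeR was under 0.05 in 2, 6 and 5 members, and in 1390, 1041 and 708 of 16120 genes. Of the 27 members, 24 were negative against WT, with a median log2 of -0.49, and 25 against K3R, with a median of -0.33, where the median over all genes was near 0 in both. Without WT 2-2 the median against WT was -0.18, with 20 negative, and without K3R 2-2 that against K3R was -0.10, with 20 negative. With all 2-2 libraries left out and 26 members tested, the medians were -0.18 against WT and -0.09 against K3R, with 19 and 18 negative. CXCL8 (chromosome 4, 73740506 to 73743716, plus strand) stood at 2.07, 0.797 and 1.80 CPM in K3Q libraries 1-1, 1-2 and 2-2, against 5.52, 4.003 and 26.3 CPM in WT. K3Q was below WT throughout, by log2 -2.76 ± 0.95 SE, adjusted p = 0.623 by edgeR. CXCL1 stood at 5.02, 3.74 and 4.42 CPM in K3Q, against 9.85, 6.29 and 11.6 CPM in WT, again below throughout (log2 -1.09). TNFAIP3 stood at 3.76, 7.60 and 8.09 CPM in K3Q, against 7.87, 13.5 and 18.1 CPM in WT, with ranges that overlapped by a small margin (log2 -1.04). The largest gap for CXCL8 was in library 2-2. K3Q against K3R gave log2 -2.65 for CXCL8, -0.97 for CXCL1 and -0.77 for TNFAIP3. Against Ctr, NFKBIA (log2 0.23), NFKBIZ (-0.62) and REL (0.33) had the lowest p, and CXCL8 was at -1.28.

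**Figure D2:**
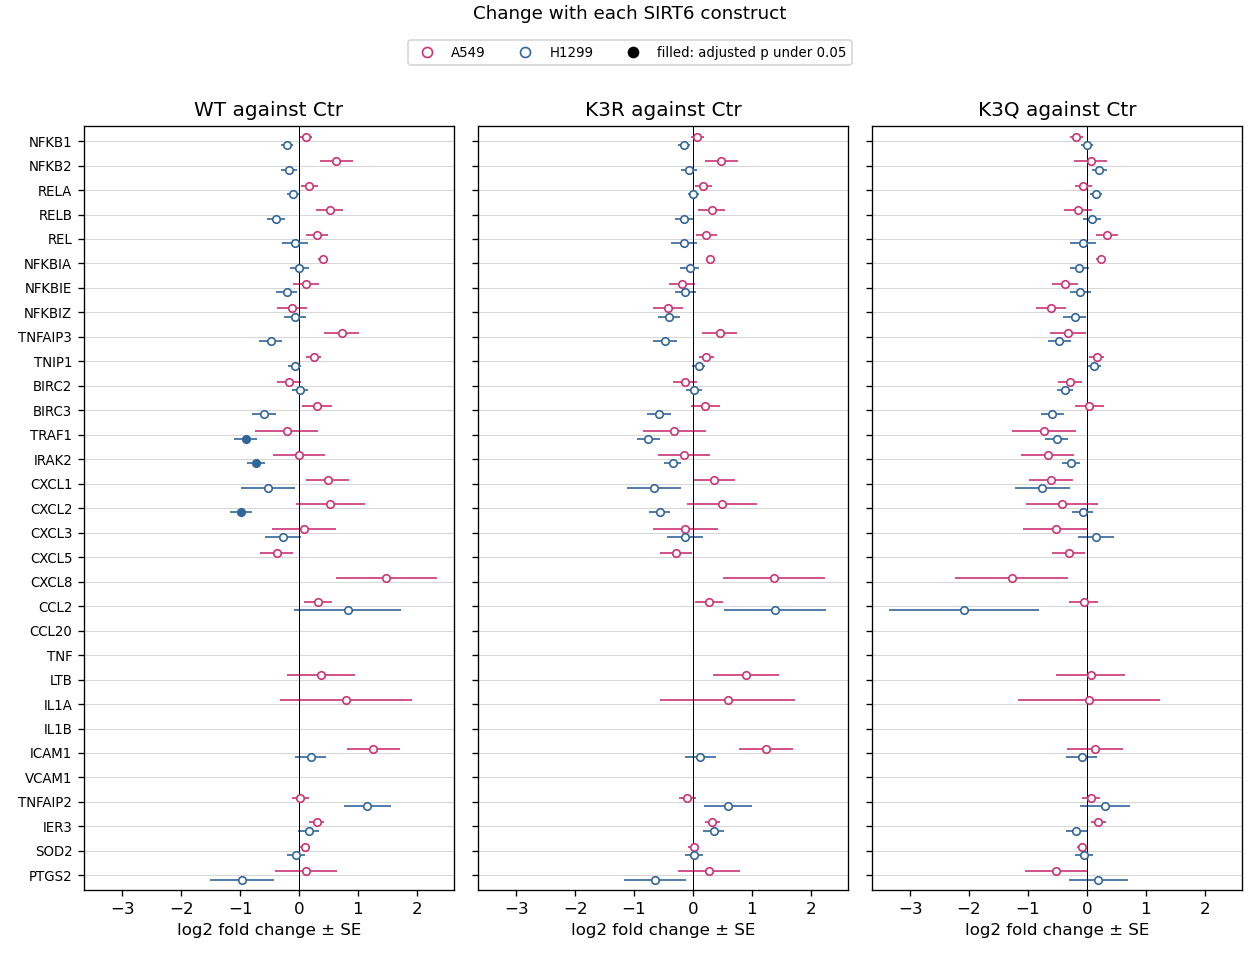
Log2 fold change of each tested gene with WT, K3R and K3Q SIRT6 against empty vector in A549 and H1299, with bars for 1 SE from the edgeR fit; filled points passed. The filled points are CXCL2, TRAF1 and IRAK2 of H1299 in WT against Ctr, and the longest bars are those of IL1A in A549 and CCL2 in H1299.

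In A549, chemokines, noncanonical subunits and adaptors of TNF and interleukin-1 receptors were higher in library 2-2 than in library 1-2. Over the constructs, with library number as a term, 12 of the 27 members were higher in library 2-2 than in library 1-2 and 0 were lower, where 14.3% of all genes passed, 1291 higher and 1012 lower. Of the 12, IL1A passed the low-count filter only through its 2-2 libraries. Libraries 1-2 and 2-2 are both of batch 2, so batch does not enter this comparison. In either line it sets 1 biological replicate against 1 other, with the constructs as replicates. Its p-values thus measure agreement between constructs and not a spread between biological replicates. The members' median log2 in A549 was 0.48, against 0.01 over all genes. By construct, which was not tested, the values were uneven. In the K3Q library 2-2, 16 members were higher and 11 lower than in K3Q 1-2, with a median log2 of 0.02, against medians of 0.58 in WT, 0.65 in K3R and 0.71 in Ctr. K3Q 1-2 and 2-2 were nearly identical over all genes, with a chi-square of 2.49 per degree of freedom. The same pair gave 32.1 in WT, 33.7 in K3R and 43.4 in Ctr. The small differences in K3Q are thus not particular to these members, and the 2 K3Q libraries may not be independent. In bulk RNA of a line, a change in the number of cells that express a gene and a change of its RNA per cell cannot be told apart.

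Among the chemokines of A549, CXCL8 moved the most. It stood at 26.3, 25.7, 1.80 and 7.67 CPM in the 2-2 libraries of WT, K3R, K3Q and Ctr, against 4.003, 3.39, 0.797 and 1.54 CPM in their 1-2 libraries (log2 2.47 ± 0.32 SE). WT and K3R were by far the highest at 2-2, Ctr was between them and K3Q, and the K3Q libraries, nearly identical over all genes, stayed low. CXCL2 stood at 21.2, 19.0, 5.10 and 14.1 CPM in the 2-2 libraries, against 5.59, 5.38, 4.91 and 3.85 CPM in the 1-2 libraries (log2 1.505 ± 0.27 SE). Its 2-2 value was over 3 times its 1-2 value in WT, K3R and Ctr, and K3Q was level. CXCL1 stood at 11.6, 10.4, 4.42 and 7.97 CPM, against 6.29, 4.54, 3.74 and 3.40 CPM (log2 0.89 ± 0.18 SE), and CXCL5 at 126, 122, 94.7 and 140.5 CPM, against 58.7, 66.2, 87.6 and 89.8 CPM (log2 0.69 ± 0.12 SE). Library 1-1 was above library 2-2 in 3 of 4 constructs for CXCL1 and in all 4 for CXCL5, at 9.85, 11.2, 5.02 and 8.93 CPM for CXCL1 and 154, 183, 188 and 223 CPM for CXCL5 in WT, K3R, K3Q and Ctr. CXCL3 (log2 1.07) did not pass, and CCL2 (0.09) was near 0.

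The noncanonical subunits rose with them. NFKB2 stood at 295, 280.3, 171 and 233 CPM in the 2-2 libraries of WT, K3R, K3Q and Ctr, against 183, 179, 179.8 and 99.7 CPM in the 1-2 libraries (log2 0.61 ± 0.15 SE). RELB stood at 109, 105, 55.7 and 80.8 CPM, against 67.6, 59.9, 60.8 and 52.3 CPM (log2 0.50 ± 0.13 SE). Both were higher at 2-2 in WT, K3R and Ctr and slightly lower in K3Q. RELA (0.27), NFKB1 (0.11) and REL (-0.19) did not pass. NFKB2 was lowest in library 1-1 of each construct, at 104, 82.0, 60.3 and 57.6 CPM in WT, K3R, K3Q and Ctr.

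Of the adaptors and regulators, TRAF1, IRAK2, BIRC2 and TNFAIP3 passed. TRAF1 stood at 22.5, 24.3, 9.52 and 32.4 CPM in the 2-2 libraries, against 7.63, 8.59, 11.8 and 7.82 CPM in the 1-2 libraries (log2 1.23 ± 0.29 SE), and IRAK2 at 59.7, 58.6, 25.6 and 66.7 CPM, against 25.9, 21.3, 25.3 and 21.3 CPM (log2 1.10 ± 0.19 SE). For both genes the Ctr library was the highest at 2-2 and K3Q the lowest. TNFAIP3 stood at 18.1, 20.3, 8.09 and 13.7 CPM, against 13.5, 9.13, 7.60 and 8.21 CPM (log2 0.62 ± 0.17 SE), and BIRC2, the cellular inhibitor of apoptosis cIAP1, at 55.6, 54.8, 43.3 and 72.2 CPM, against 37.0, 45.3, 42.7 and 41.5 CPM (log2 0.42 ± 0.12 SE). BIRC3, NFKBIE, TNIP1 and NFKBIZ did not pass, at log2 0.48, 0.41, 0.24 and 0.33, and NFKBIA was at -0.02.

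Of the other targets, PTGS2 stood at 62.3, 67.2, 17.6 and 45.4 CPM in the 2-2 libraries of WT, K3R, K3Q and Ctr, against 21.1, 18.3, 17.4 and 20.5 CPM in the 1-2 libraries (log2 1.24 ± 0.27 SE). Its 1-1 libraries held 34.0, 48.6, 47.6 and 46.9 CPM, so Ctr 1-1 was level with Ctr 2-2. IL1A, the cytokine interleukin-1 alpha, was at 0 to 20 counts in all A549 libraries. It held 1.17, 1.15, 0.498 and 0.719 CPM at 2-2, against 0.127, 0.0605, 0.184 and 0 CPM at 1-2 (log2 3.13 ± 0.56 SE). It had at most 3 counts in any 1-1 or 1-2 library of A549. It thus entered the test only through the 2-2 libraries, and its call is no support for a rise there. ICAM1 (log2 0.88), LTB (0.34), IER3 (0.19), SOD2 (0.13) and TNFAIP2 (-0.26) did not pass. Adjusted p of the 12 genes that passed ran from 0.0293 to 0.0371 by edgeR. Those calls ended without any 1 of the 1-2 or 2-2 libraries of Ctr, WT or K3R, when 0 members and 0 of all genes passed. Without K3Q 1-2, 17 members and 2441 of 16597 genes passed, and without K3Q 2-2, 21 members and 6726 of 16600 genes. Without all K3Q libraries, 20 of 27 members passed, 19 higher and TNFAIP2 lower, where 38.2% of all genes passed.

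**Figure D3:**
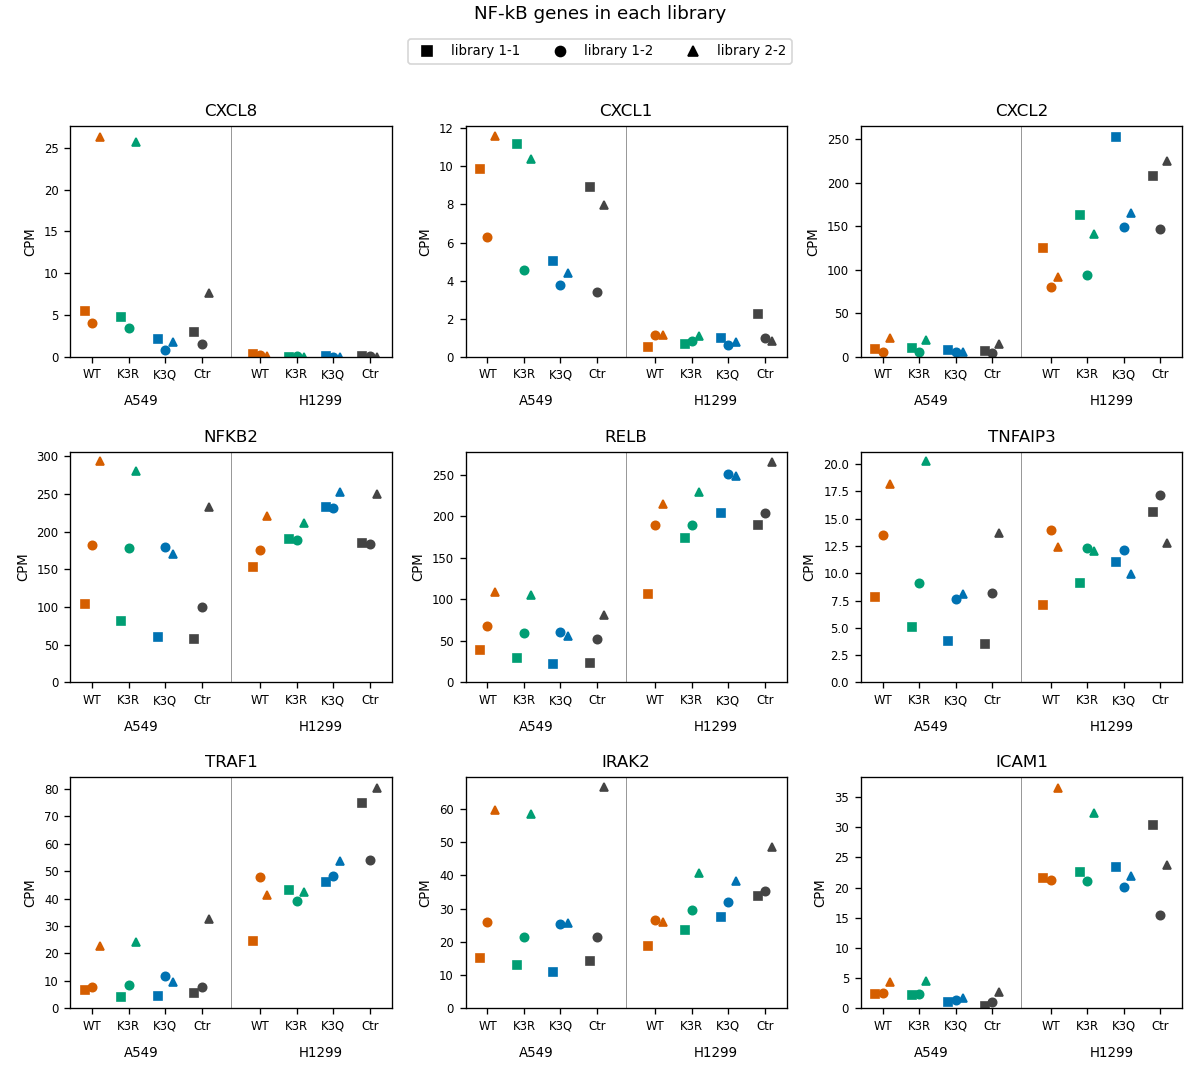
CPM of 9 genes in each of the 24 libraries, by line and construct; squares are library 1-1, circles 1-2 and triangles 2-2. In A549 the triangles of WT, K3R and Ctr stand above the circles in all 9 panels, and the triangle of K3Q is below those of the other constructs. A549 K3Q libraries 1-2 and 2-2 were nearly identical over all genes.

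Genes of the cell cycle moved with the 2-2 libraries of A549. The summed level of 12 proliferation genes was 2200, 2178, 3420 and 1592 CPM in the 2-2 libraries of WT, K3R, K3Q and Ctr. It was 3477, 3484, 3401 and 3390 CPM in the 1-2 libraries. Of the 12 genes 11 were lower past the test, where 14.3% of all genes passed. The K3Q pair, again, was nearly identical over all genes. In H1299 7 of the 12 were lower at 2-2, where 16.3% of all genes passed. Their part in the result was not tested. Of 39 other NF-kB targets, 28 were tested in A549 and 14 were higher and 1 lower at 2-2, where 14.3% of all genes passed. PTX3, a secreted pattern recognition protein, stood at 4.62, 2.55, 0.124 and 7.73 CPM at 2-2, against 0.127, 0.181, 0.123 and 0.321 CPM at 1-2 in WT, K3R, K3Q and Ctr. CX3CL1, the chemokine fractalkine, and IL6, the cytokine interleukin-6, were higher by log2 2.68 and 2.18 at low levels. PTX3, CX3CL1 and IL6 are among the 14, and passed the low-count filter of A549 only through 2-2 libraries. Their calls are thus no support for a rise there. ELF3, an epithelial transcription factor, was lower by log2 -0.39. Of 31 receptors, adaptors and kinases upstream of NF-kB, 28 were tested and 3 were higher, among them IKBKB, a catalytic subunit of the inhibitor kinase (log2 0.36), and 3 lower, among them MAP3K14, the kinase of the noncanonical arm (log2 -0.64), against the same 14.3%. Of 18 other inhibitors and feedback regulators all were tested, 2 were higher and 1 lower.

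In H1299 the same comparison gave smaller and mixed changes. Library 2-2 was higher than library 1-2 in CXCL2, NFKB2, ICAM1 and IRAK2 and lower in SOD2, 5 of 23 members, where 16.3% of all genes passed. ICAM1 stood at 36.4, 32.4, 21.96 and 23.7 CPM in the 2-2 libraries of WT, K3R, K3Q and Ctr, against 21.3, 21.1, 20.2 and 15.5 CPM in the 1-2 libraries (log2 0.57 ± 0.16 SE, adjusted p = 0.0271 by edgeR). CXCL2 stood at 92.0, 141, 165 and 225 CPM, against 80.3, 94.4, 149 and 146 CPM (log2 0.41 ± 0.10 SE, adjusted p = 0.0123 by edgeR). Both genes were higher at 2-2 in each construct. NFKB2 stood at 221, 212, 253 and 249.97 CPM, against 176, 189, 232 and 183 CPM (log2 0.29 ± 0.08 SE), and IRAK2 at 25.9, 40.7, 38.3 and 48.6 CPM, against 26.4, 29.4, 32.0 and 35.2 CPM (log2 0.32 ± 0.10 SE), with WT level for IRAK2. SOD2 stood at 119.9, 124, 136 and 113 CPM, against 156, 172, 152 and 174 CPM, lower in each construct (log2 -0.39 ± 0.08 SE, adjusted p = 0.00477 by edgeR). Leaving out 1 library at a time left 1 to 6 members passing, with SOD2 among them each time: 1 without Ctr 1-2 or K3R 1-2, 2 without Ctr 2-2 or K3R 2-2, and 3 without WT 1-2. Over all genes 1181 to 3668 passed in these fits, of 16666 to 16975 tested. SIRT6 RNA was higher too in the 2-2 libraries of H1299 (log2 0.84 ± 0.18 SE), and its part was not tested.

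The difference of library 2-2 from library 1-2 was compared between the lines. Fitted over all 24 libraries, the difference A549 minus H1299 passed in 4 of 27 members, CXCL2, IRAK2, IL1A and SOD2, all positive, where 3.86% of all 18102 genes passed. CXCL2 differed by log2 1.13 ± 0.28 SE and IRAK2 by 0.81 ± 0.23 SE. Both rose at 2-2 in both lines, by more in A549. IL1A passed the low-count filter only through the 2-2 libraries of A549, so its call is no support for a difference. Of the 16 fits without 1 library, CXCL2 passed in 4, IRAK2 in 2, IL1A in 7 and SOD2 in 16. CXCL8 was at 3.61 ± 1.40 SE and did not pass, on at most 7 counts in any library of H1299. Without the K3Q libraries 10 members passed, where 13.5% of genes did.

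**Figure D4:**
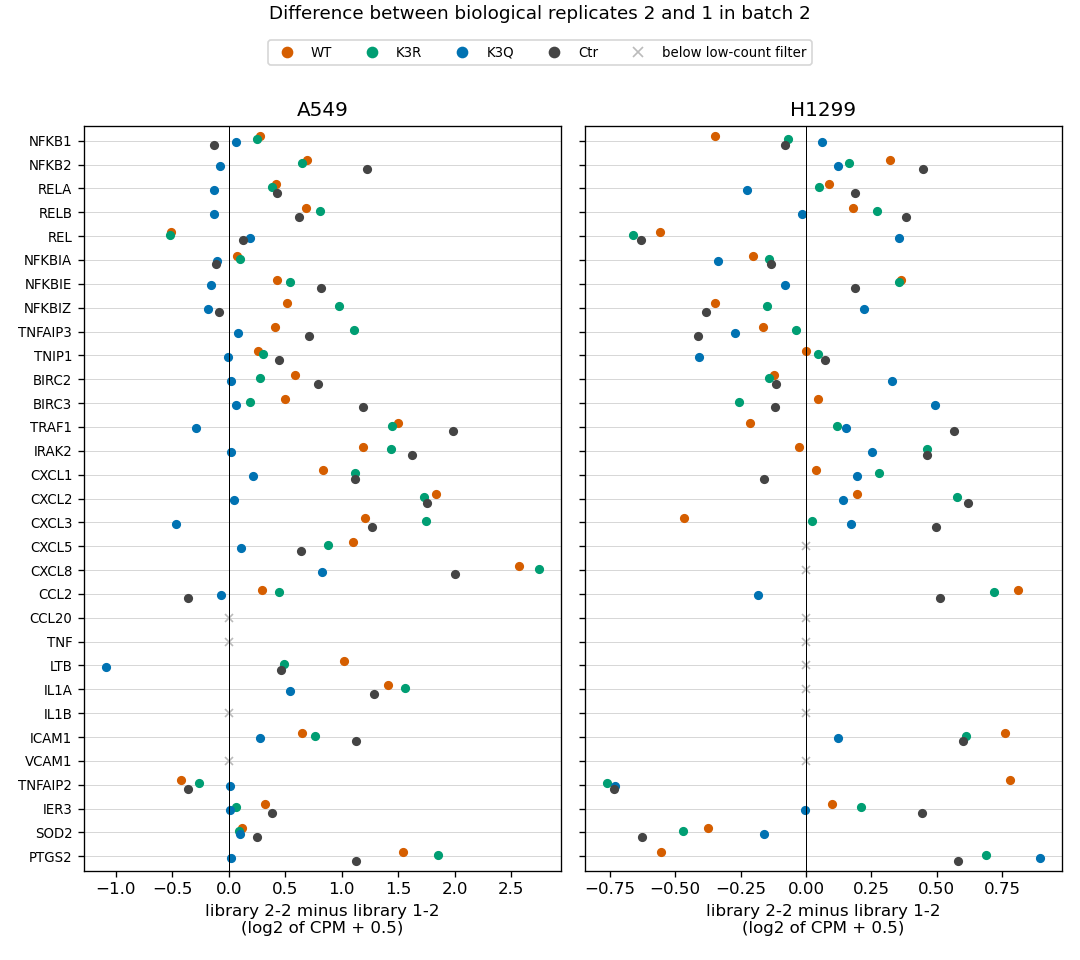
Library 2-2 minus library 1-2 of each construct, on the scale of log2 of CPM plus 0.5, for each member in A549 and H1299; crosses mark members under the low-count filter. In A549 the points of WT, K3R and Ctr lie to the right of 0 for most members and those of K3Q cluster near 0, while in H1299 the points of each construct lie on both sides. The 2 A549 K3Q libraries compared were nearly identical over all genes.

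With biological replicate 2 left out, the remaining libraries 1-1 and 1-2 of each group gave more calls. Each group then has 2 libraries of a single biological replicate, and the p-values may rest on technical spread. In A549 WT against Ctr 7 members passed, where 2.32% of all genes did. TNFAIP3, NFKB2, BIRC3, NFKBIA, ICAM1 and RELB were higher, by log2 0.92, 0.87, 0.63, 0.34, 1.86 and 0.56, and CXCL5 was lower, by -0.56. NFKB2 stood at 104 and 183 CPM in WT libraries 1-1 and 1-2, against 57.6 and 99.7 CPM in Ctr. In K3R against Ctr 4 passed, where 2.44% of genes did, with ICAM1, NFKB2, BIRC3 and IER3 higher. In K3Q against WT CXCL8 (log2 -1.76) and TNFAIP3 (-0.94) were lower, where 0.49% of genes passed. The lower CXCL8 of K3Q in A549 was thus also present, at a smaller size, without the 2-2 libraries.

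In H1299 the same restriction gave 6 members lower in WT than in Ctr and 0 higher, where 8.96% of all genes passed. They were CXCL2 (log2 -0.80), TRAF1 (-0.87), BIRC3 (-0.83), TNFAIP3 (-0.70), IRAK2 (-0.64) and RELB (-0.45). K3R against Ctr gave 5 lower, the same genes less RELB, where 7.22% of genes passed. K3Q against Ctr gave BIRC2 and BIRC3 lower and NFKB2 and RELA higher, where 12.2% of genes passed. K3Q against WT gave 7, where 24.2% of genes passed, with CXCL2, RELB, NFKB2, IRAK2, RELA and TNIP1 higher and BIRC2 lower.

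The signs of WT against Ctr were opposite in the 2 lines for several members, and the difference was tested directly. Over all 24 libraries, with batch within line as a term, 0 of 27 members passed in WT against Ctr, A549 minus H1299. Of all genes 0.735% passed, and DESeq2 called no member. Unadjusted p by edgeR was under 0.05 in 7 members and in 1688 of 18102 genes. Counts with library number as a block are given below. TNFAIP3 (log2 1.20 ± 0.38 SE) and RELB (0.91 ± 0.29 SE) had low p on the positive side, and TNFAIP2 (-1.12 ± 0.38 SE) on the negative side. TNFAIP3 with WT was at log2 0.73 in A549 and at -0.48 in H1299. With biological replicate 2 left out 7 members passed, where 3.21% of genes did: IRAK2, CXCL2, TNFAIP3, NFKB2, BIRC3, ICAM1 and RELB, all relatively higher in A549. For K3R 0.475% of genes and 0 members passed. Unadjusted p by edgeR was under 0.05 in 2 members and in 1479 of 18102 genes. TNFAIP3 (0.92 ± 0.37 SE), BIRC3 (0.78 ± 0.34 SE) and ICAM1 (1.07 ± 0.52 SE) had the lowest p of the members. For K3Q 0.0166% of genes and 0 members passed. Unadjusted p by edgeR was under 0.05 in 0 members and in 1135 of 18102 genes. BIRC3 (0.63 ± 0.34 SE), NFKBIA (0.36 ± 0.20 SE) and CCL2 had the lowest p of the members, the last on 3 counts in H1299 K3Q. DESeq2 called 0 members for K3R and for K3Q.

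Among the 39 other NF-kB targets, 22 were tested in H1299 and 5 were lower and 0 higher in WT than in Ctr, where 4.05% of all genes passed. CSF1, the growth factor of macrophages, stood at 1.16, 1.16 and 1.87 CPM in WT, against 3.46, 3.55 and 4.44 CPM in Ctr (log2 -1.45), and the TNF receptor family gene TNFRSF9 stood at 1.08, 3.97 and 2.31 CPM in WT, against 5.81, 5.23 and 5.83 CPM in Ctr (log2 -1.29). The WT libraries lay below the Ctr libraries for both. CD83, a surface protein of activated antigen-presenting cells, was lower by log2 -1.12. In K3R against Ctr 3 of the 22 were lower, CSF1 and TNFRSF9 among them, by log2 -1.55 and -1.29, where 3.25% of all genes passed. In K3Q against WT 3 were higher, IL32 and GADD45B among them, by log2 0.90 and 0.60, where 3.46% passed. Of the 31 upstream genes 27 were tested in H1299. TRAF2, an adaptor of TNF receptors, was the 1 that passed in WT against Ctr, where it was lower (log2 -0.40). In K3Q against WT TRAF2 was higher (log2 0.51) and the kinase IRAK4 lower (log2 -0.57), against the same 3.46%. In K3R against Ctr IKBKG, the regulatory subunit of the inhibitor kinase, and the kinase IRAK1 were higher (log2 0.55 and 0.53) and the receptor IL1R1 lower (log2 -1.22), against the same 3.25%. NFKBIB, a further inhibitor, was the 1 of 17 other regulators that passed in WT against Ctr and in K3Q against WT, at log2 -0.47 and 0.53.

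Across the 12 libraries of A549, the genes whose log2 CPM followed CXCL8 most closely were VWA5B2, WDR25, LHX4, BEGAIN and NR1D1, with Pearson's r of 0.96, 0.94, 0.94, 0.94 and 0.94. The 12 points share 4 constructs and the 2-2 libraries that stand apart, so these values describe these libraries only. CXCL8 was under the low-count filter in H1299 and has no such value there.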

How the data were processed

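Total RNA of 24 libraries was sequenced, 3 in each of 8 groups. The authors deposited 1 table of raw counts per gene symbol, which is not normalized. Per the submitters' processing notes the tools were FastQC, cutadapt, STAR and featureCounts with GRCh38; versions, annotation release and strand setting: not given in the sources used here. For that reason, reads of antisense or overlapping genes and of near-identical copies may be shared.

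From those counts, genes were filtered with filterByExpr, scaled by TMM and tested with the quasi-likelihood test of edgeR 4.0.16 in R 4.3.3, with Benjamini-Hochberg adjustment over all genes and a threshold of 0.05. Each line was fitted alone with construct and batch as terms (12 libraries), library 2-2 against 1-2 with construct and library number, and differences between the lines over all 24 libraries, with batch as a term within each line, which sets the difference between the lines in Ctr at batch 1. An SE is the absolute log2 fold change over the square root of F. CPM use TMM factors over all libraries, and exon lengths and gene coordinates are from GENCODE release 29. Differences between single libraries are on the scale of log2(CPM + 0.5). Alternatives were DESeq2 1.42.0, another scaling, filter or batch term, a replicate block, and fewer libraries. The edgeR fit was tested on simulated data. Promoters are from RefSeq, GRCh38.p14.

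Same-numbered libraries deviated together in H1299, where the correlations of their deviations ran from 0.135 to 0.553. In A549 they ran from 0.275 to 0.746 without K3Q 2-2 and from 0.0566 to 0.118 with it. Because of the pairs with A549 K3Q 2-2, the numbers were taken to pair the libraries in H1299 only. That library was nearly identical to K3Q 1-2, and the correlations of the other A549 pairs ran higher than those of H1299. The choice thus rests on 1 library, and blocked counts of A549 are given with the other alternatives below.

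The members and gene lists were chosen with earlier results of these data known. In each comparison the text names the members that passed (with over 12, the 6 largest rises and falls) or, where none passed, the 3 with the lowest unadjusted p. Other lists are given as counts with at most 3 genes per direction. 1 gene on the list of other targets is counted there, but its own values are not reported here. Intervals and limits at low counts cover counting error only.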

Additional observations from a re-analysis of the deposited data

Results flagged for a closer look

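In 4 members the change from library 1-2 to library 2-2 differed between the lines, by the test of the difference itself over all 24 libraries with edgeR. The difference, A549 minus H1299, was log2 1.13 for CXCL2, 0.81 for IRAK2, 3.70 for IL1A and 0.55 for SOD2. IL1A rests on at most 20 counts in any A549 library and 8 in any H1299 library. It passed the low-count filter only through the 2-2 libraries of A549, so its call here is no support for a difference. SOD2 was lower at 2-2 in H1299 and did not pass in A549. Leaving out 1 library at a time left between 1 and 10 members with such a difference, where 212 to 2510 of all genes passed. Over those 16 fits CXCL2 passed in 4, IRAK2 in 2, IL1A in 7 and SOD2 in 16.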

How the results depend on the processing

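Counts here are of members passing, and the cause of each shift was not tested. With DESeq2, 1 passed in A549 WT against Ctr (NFKBIA), with 178 of 16120 genes. In H1299 2 passed in K3R against Ctr, with 921 of 16262 genes, and 2 in K3Q against WT, with 1123. With the replicate block, 1 passed in A549 WT against Ctr (NFKBIA), with 105 of 16120 genes, and 1 in A549 K3Q against WT (CXCL8), with 20. In H1299 2 passed in K3R against Ctr, 4 in K3Q against WT and 1 in K3Q against K3R, with 1392, 1946 and 526 of 16262 genes. In WT against Ctr, A549 minus H1299, 4 passed (CXCL2, TNFAIP3, NFKB2 and RELB, with 434 of 18102 genes). The block changed no other count by over 1.5 times. In batch 2 alone, 1 passed in A549 2-2 against 1-2, with 4 of 16101 genes. For the difference of 2-2 against 1-2 between the lines, batch 2 alone gave 2, with 358 of 18179 genes. It gave 0 in H1299 WT against Ctr and 0 in H1299 K3Q against WT, with 90 and 8 of 16240 genes. With no batch term, 1 passed in H1299 WT against Ctr and 0 in K3Q against WT, with 409 and 188 of 16262 genes.

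With biological replicate 2 left out, the counts were 7, 4 and 2 in A549 WT against Ctr, K3R against Ctr and K3Q against WT. The genes passing there were 374, 394 and 79 of 16116. In H1299 the counts were 6, 5 and 4 for WT, K3R and K3Q against Ctr, 7 in K3Q against WT, and 3 when K3Q was set against K3R. The genes passing there were 1493, 1203, 2028, 4033 and 1293 of 16659. Between the lines the counts were 7, 3 and 1 for WT, K3R and K3Q, with 581, 521 and 444 of 18095 genes. With no low-count filter the counts were 4, 3 and 4 for WT, K3R and K3Q against Ctr in A549, 8 in K3Q against WT, and 4 when K3Q was set against K3R. The genes passing there were 296, 315, 641, 332 and 228 of 35249. In H1299 the counts were 6, 3 and 2 for WT, K3R and K3Q against Ctr, 3 in K3Q against WT, and 3 when K3Q was set against K3R. The genes passing there were 1301, 1276, 260, 1258 and 650 of 35567. Between the lines the counts were 6 for WT, 2 for K3R and 7 for 2-2 against 1-2, with 506, 434 and 1311 of 39850 genes. Without the K3Q libraries, 20 passed in A549 2-2 against 1-2 and 10 in its difference between the lines, with 6053 of 15855 and 2404 of 17828 genes.

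Without 1 library at a time, the counts ran from 0 to 21 in A549 2-2 against 1-2, 1 to 6 in H1299 2-2 against 1-2, 1 to 10 in their difference, 1 to 3 in H1299 WT against Ctr, 0 to 1 in H1299 K3R against Ctr, 0 to 2 in H1299 K3Q against WT and 17 to 22 between the lines in Ctr. In the same order, 0 to 6726, 1181 to 3668, 212 to 2510, 245 to 495, 102 to 553, 41 to 849 and 8831 to 10718 genes passed. These fits tested 16506 to 18687 genes. The counts of members stayed at 0 in the other comparisons. Member values and medians did change sign. The median log2 was -0.44 for A549 against H1299 in Ctr, against 0.11 in batch 2 alone and 0.06 with no batch term. In A549 it was -0.09 for K3R against WT, against 0.05 without K3R 1-2 and 0.12 without WT 2-2, and -0.15 for K3Q against Ctr, against 0.06 with biological replicate 2 left out and 0.01 without Ctr 2-2. IRAK2 passed between the lines in Ctr and was at log2 0.11 in batch 2 alone, not passing. Depth limits CXCL5, CXCL8, IL1A and LTB in H1299 and CCL20, TNF, VCAM1 and IL1B in both lines.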

Other observations

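Receptors and adaptors upstream of NF-kB also differed between the lines with empty vector. Of 31 such genes 29 were tested over both lines, and A549 was higher in 10 and lower in 12, where 59.2% of all genes passed. MYD88, the adaptor of Toll-like and interleukin-1 receptors, stood at 49.97, 46.6 and 31.7 CPM in A549 Ctr libraries 1-1, 1-2 and 2-2, against 0.513, 0.450 and 0.535 CPM in H1299 Ctr. LTBR, the lymphotoxin beta receptor, stood at 235, 187 and 196 CPM in A549 Ctr, against 0.256, 0 and 0.160 CPM in H1299 Ctr. IL1R1, the signalling receptor of interleukin-1, stood at 56.9, 25.3 and 24.9 CPM in A549 Ctr, against 4.19, 4.16 and 3.96 CPM in H1299 Ctr. All A549 libraries lay above all H1299 libraries for each of the 3 genes. The kinase MAP3K7 was among the lower genes, at 46.3, 40.4 and 41.1 CPM in A549 Ctr, against 119, 121 and 107 CPM in H1299 Ctr (log2 -1.37 by edgeR). The TNF receptor TNFRSF1B stood at 0.916, 1.54 and 1.14 CPM in A549 Ctr, against 3.68, 3.15 and 3.796 CPM in H1299 Ctr (log2 -1.70). IRAK3, a kinase-like inhibitor of interleukin-1 signalling, stood at 0.0572, 0.128 and 0.240 CPM in A549 Ctr, against 1.07, 0.844 and 0.642 CPM in H1299 Ctr (log2 -2.78). A549 lay below H1299 throughout for these 3.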
